A study of Mus musculus with 2756 samples.

Results

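The cells described here are late apical progenitors of the embryonic mouse neocortex, defined as the cells that the authors' cluster label calls AP.late. All 230 cells with that label were taken, out of 2756 cells in the deposited count table (8.35%), whatever their injection day or collection time. No measured value was used in this choice beyond the label itself. The label was made from the same counts, so differences between AP.late and other clusters are given as descriptions of size, with no test.

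Apical progenitors, also called radial glia, line the ventricle of the embryonic cortex, divide at its surface and produce neurons directly or through basal progenitors. They keep their identity through Notch signalling and factors such as Sox2, Pax6 and Hes1, while proneural genes such as Neurog2 drive the step towards neurons. Late in gestation the same lineage turns to astrocytes, a switch in which nuclear factor I proteins, Sox9, Zbtb20 and signals through JAK-STAT, BMP and FGF receptors take part.

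The study labelled ventricular cells of the mouse neocortex, in the presumptive somatosensory area, with FlashTag, a fluorescent dye, at embryonic day 12, 13, 14 or 15 (E12 to E15). Labelled cells were collected 1, 24 or 96 h later, sorted for the brightest dye signal, captured on C1 chips that take cells of a limited size, and sequenced as full-length polyA cDNA. All groups share the dye injection and the sort, and the labels state no strain, genotype or further treatment and name no animal. AP.late cells are compared with AP.mid (the authors' clusters AP.mid1 and AP.mid2 together, 423 cells) and with the clusters AP.early (190 cells), N1d (669 cells), N4d (709 cells), Astro (64 cells), BP and IN. The labels do not spell these names out. AP, BP, IN and Astro are read here as apical progenitors, basal progenitors, interneurons and astrocytes, and N1d and N4d as neuron clusters.

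Cells are not replicates, so counts were summed over the cells of a cluster in each condition (an injection day at a collection time) with at least 5 such cells. AP.late gave 6 sums holding 220 of its cells. They were E13, E14 and E15 at 1 h (15 and 18 cells, and 53.9% of all AP.late cells at E15) and the same days at 24 h (7, 19 and 37 cells). The remaining 10 cells, from E12 at 24 h and from the 96 h collections, entered no sum. The sums held 4.32 to 36.4 M counts, and the median AP.late cell held 298753 to 393365 counts at 1 h and 412122 to 632233 at 24 h. Levels are CPM, counts scaled to library size, with TMM scaling, which adjusts for composition. CPM are not divided by gene length, so they compare samples for 1 gene and not genes with each other. Each run code in the labels held cells of 1 collection time only, so time and run cannot be told apart. Injection day was partly tied to run as well. At 1 h, E14 came from another run than E13 and E15, and at 24 h, E13 came from another run than E14 and E15. The table held 0 pairs of cells with the same chip position and 0 with identical counts.

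AP.late cells made up a larger share of the progenitors captured from later injection days. At 1 h they were 0% of the cells at E12, where the count of 0 allows a share of up to 1.59%, then 7.25% at E13, 13.4% at E14 and 41.2% at E15. The exact 95% interval at E15 was 35.6% to 46.99%, apart from the 8.16% to 20.4% at E14. At 24 h the shares of all cells were lower from E13 to E15, at 3.14%, 8.68% and 17.4%. At E12 the 24 h share was 0.746%, inside the limit for the count of 0 at 1 h. Among apical progenitor cells alone, AP.late reached 0%, 7.46%, 15.0% and 58.2% at 1 h and 14.3%, 31.8%, 59.4% and 84.1% at 24 h. Within each injection day from E13 on, the share of apical progenitors was higher at 24 h than at 1 h. These intervals cover counting error only, and the sort on dye brightness can set every share.

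**Figure D1:**
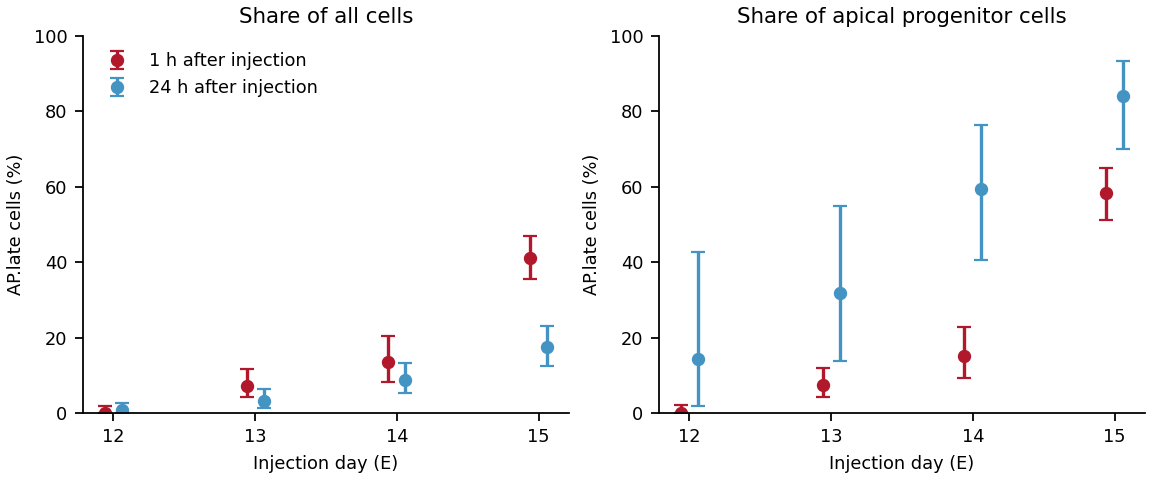
Share of AP.late cells (%) by injection day among all cells (left) and among apical progenitor cells (right), at 1 h (red) and 24 h (blue). Bars are exact 95% binomial intervals. The highest values in both panels are at E15, with 41.2% of all cells at 1 h and 84.1% of apical progenitor cells at 24 h.

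The 4 genes proposed as markers of the cluster were all expressed in AP.late, but they did not set it apart from AP.mid cells of the same condition. Zbtb20, a zinc finger factor linked to astrocyte formation, read 119.8, 507 and 713 CPM at E13, E14 and E15 at 1 h, and 373, 415 and 694 CPM at 24 h. The E13 sum at 1 h was the lowest and the E15 sums were the highest. AP.mid cells of those 6 conditions read 202.6, 301.4, 616, 537, 399 and 1343 CPM, so the ranges overlapped, and AP.late was above AP.mid in 3 of 6 conditions.

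Fabp7, a brain fatty acid binding protein of radial glia, read 357, 584 and 1723 CPM in AP.late at 1 h and 1906, 2506 and 3143 CPM at 24 h. All 24 h sums lay above all 1 h sums, and within each time the level was higher at each later injection day. In AP.mid it read 684, 1123 and 2266 CPM at 1 h and 1771, 2765 and 5058 CPM at 24 h, above AP.late in 5 of 6 conditions. Ptprz1, a receptor phosphatase that binds pleiotrophin, read 91.98, 60.1 and 280.9 CPM in AP.late at 1 h and 202.4, 175.02 and 212.8 CPM at 24 h. AP.mid read 66.8 to 759 CPM and was higher in 4 of 6 conditions.

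Aldoc, the brain form of the glycolytic enzyme aldolase, was the 1 marker that leaned towards AP.late. It read 459, 755 and 788 CPM at 1 h and 595, 1034 and 915 CPM at 24 h, against 485 to 625 CPM in AP.mid, and was above AP.mid in 5 of 6 conditions. The mean difference AP.late minus AP.mid on the log2(CPM + 5) scale was -0.20 for Zbtb20 (SD 0.64, n = 6 conditions), -0.50 for Fabp7 (SD 0.43), -0.57 for Ptprz1 (SD 1.01) and 0.40 for Aldoc (SD 0.35). None passed 2-fold with 1 sign in all 6 conditions, as 1.1% of all genes did upwards and 2.35% downwards. The median over the 4 genes was -0.35, against 0.007 over all 9854 genes compared, and it was 0.039 against AP.mid1 alone and -0.55 against AP.mid2 alone.

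Against AP.early, most of whose 190 cells came from E12 at 1 h, the direction depended on the marker. In the AP.early sum of E12 at 1 h, Zbtb20 read 26.6 CPM, Fabp7 243.3 CPM, Aldoc 234.02 CPM and Ptprz1 64.2 CPM. Where both clusters came from the same condition, E13 and E14 at 1 h, Zbtb20 alone was higher in AP.late (119.8 and 507 CPM against 57.9 and 107.05 CPM). Fabp7 (357 and 584 CPM against 792 and 1164 CPM), Aldoc (459 and 755 CPM against 701 and 833 CPM) and Ptprz1 (91.98 and 60.1 CPM against 170.6 and 134.2 CPM) were lower in AP.late in both.

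Cell by cell, after thinning each cell to 50000 counts, all 4 markers were detected in 64.3% of the 230 AP.late cells (exact interval 57.8% to 70.5%). The share was 2 of 15 cells at E13 and 4 of 18 at E14 at 1 h, and 70.97% of the cells at E15. AP.mid2 cells of E15 at 1 h reached 50 of 62 (80.6%, interval 68.6% to 89.6%), while AP.mid1 cells of that condition reached 10 of 27 (37.0%). Astro cells reached 62 of 64 (96.9%), and N1d cells 5.82%. The intervals cover counting error within 1 sample only and do not compare the clusters. AP.late is called here by its label and not by these genes.

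**Figure D2:**
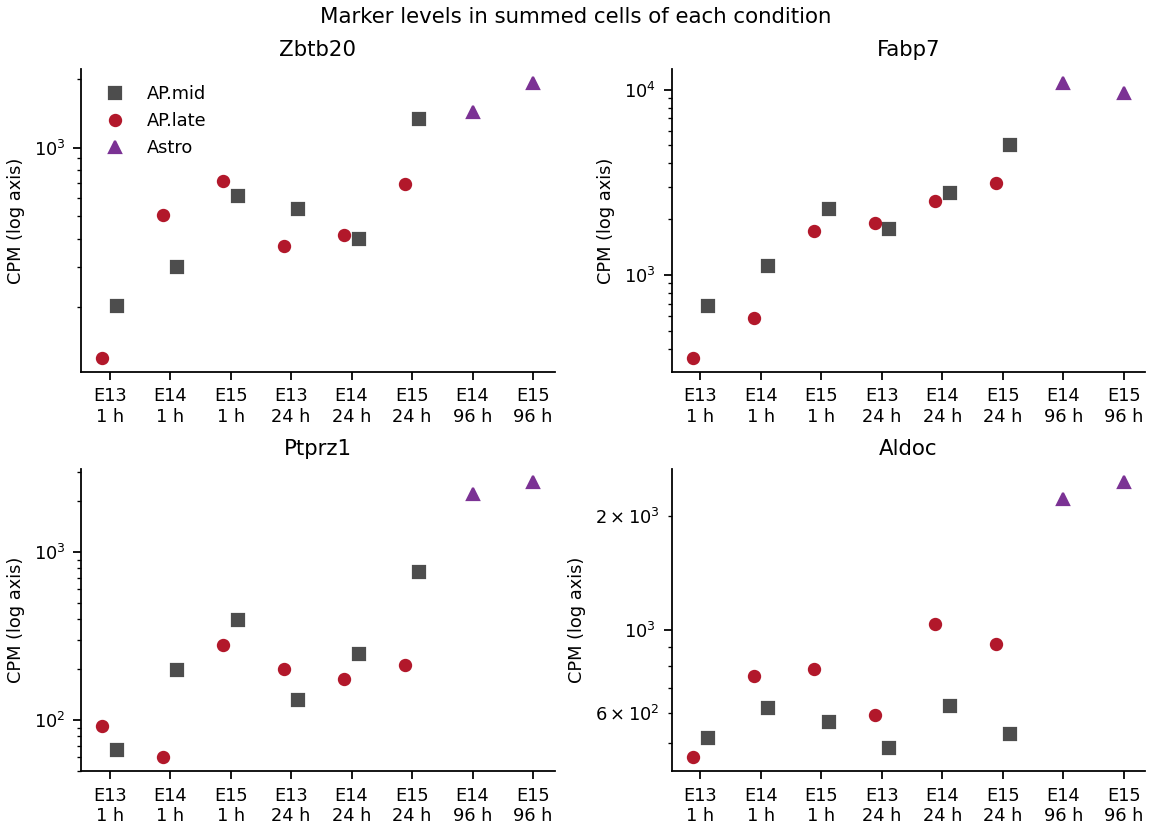
Levels of the 4 marker genes (CPM, log axis) in the summed AP.late (red circles) and AP.mid cells (grey squares) of 6 conditions and in Astro cells (purple triangles) of E14 and E15 at 96 h. Each point is 1 sum of cells. AP.late and AP.mid overlap for every gene, and Fabp7 reaches 10859 and 9586 CPM in Astro.

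Set against AP.mid cells of the same condition, AP.late had low levels of the genes of G2 and mitosis and somewhat higher levels of a few neurogenic genes. Of 9854 genes, 340 were past 2-fold with 1 sign in all 6 conditions, 1.1% of all genes higher in AP.late and 2.35% lower. In the list of 26 genes of G2 and M phase, 25 were lower and none higher, with a median of -3.21 on the log2 scale. The exception, Kif20b, was lower by 2.54 on average and higher in E13 at 1 h. Clusters were drawn from these counts, so this describes how AP.late was delimited and is not a test.

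Ccnb1 encodes cyclin B1, which activates Cdk1 at entry into mitosis. It read 21.3, 37.9 and 44.5 CPM in AP.late at 1 h and 5.46, 0.08 and 12.5 CPM at 24 h. AP.mid read 226.6 to 593 CPM in the same conditions, with no overlap, and the mean difference was -4.26 (SD 1.59, n = 6). Single cells carried much of what was left: 1 cell held 81.9% of the Ccnb1 counts of E14 at 1 h, and 6 of 15 cells of E13 at 1 h had any.

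Other genes with the largest differences serve the same stage. They were Cdca8 and Birc5, subunits of the chromosomal passenger complex (-4.04 and -3.94), the kinesins Kif23 (-3.86) and Kif4 (-3.68), the spindle proteins Aspm (-3.70), Nusap1 (-3.64) and Tpx2 (-3.56), the kinetochore genes Casc5 (-3.75) and Spc25 (-3.58), and Cks2 (-3.70), Fam64a (-3.80) and Dlgap5 (-3.60). Cdc20, which activates the anaphase promoting complex, read 13.8, 133.2 and 45.9 CPM in AP.late at 1 h and 0.23, 0.97 and 14.6 CPM at 24 h, against 51.8 to 582 CPM in AP.mid. The genes named here in this direction are all genes of cell division.

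The distance depended on which AP.mid cluster was used. Summed over the 26 genes, AP.late read 1212, 1496 and 1472 CPM at 1 h and 316, 426 and 1161 CPM at 24 h, the 24 h sums all below the 1 h sums. AP.mid2 read 9883 to 17437 CPM, AP.early 4766 to 5213 CPM and AP.mid1 1851 to 2884 CPM, so AP.late lay below every sum of the other apical progenitor clusters. Against AP.mid2, 26 of 26 genes were lower with a median of -3.65. Against AP.mid1, which had sums only at 1 h, 6 of 23 genes were lower, with a median of -0.86. Cdc20 (-0.67), Tpx2 (-0.78), Aspm (-0.89), Cks2 (-0.94) and Spc25 (-0.27) were then inside 2-fold. Sums of basal progenitors (463 to 6884 CPM) and of Astro (214.8 and 322 CPM) overlapped those of AP.late.

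**Figure D3:**
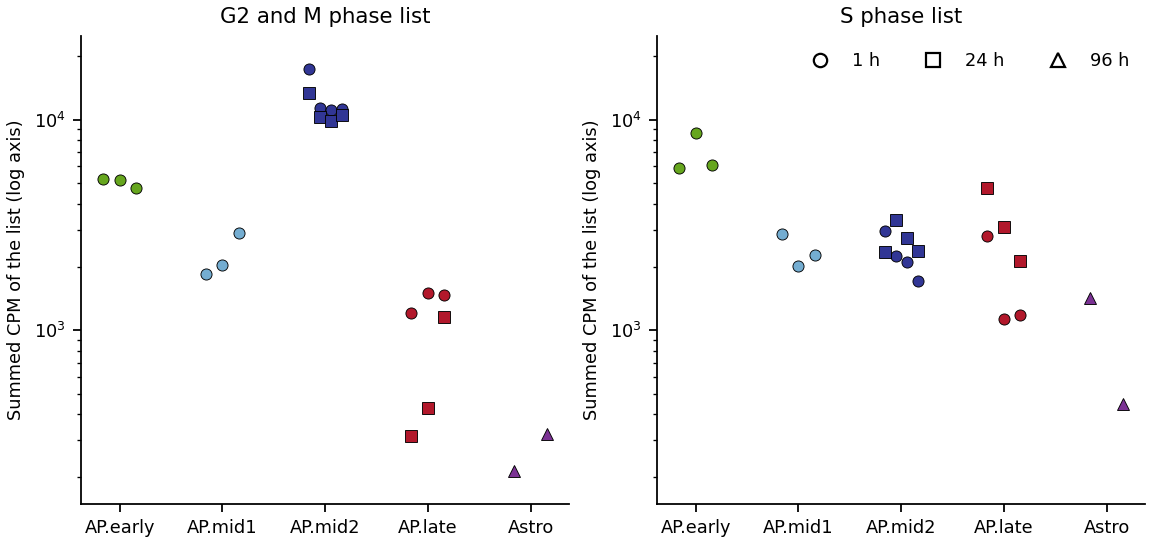
Summed CPM (log axis) of the G2 and M phase list (left) and the S phase list (right) in each sum of the apical progenitor clusters and Astro. Circles are 1 h, squares 24 h and triangles 96 h. In the left panel AP.late (316 to 1496 CPM) lies below AP.early, AP.mid1 and AP.mid2, and in the right panel it overlaps AP.mid1 and AP.mid2.

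Genes of this list are known to be controlled through 2 short promoter elements, the cell cycle genes homology region, with the letters TTTGAA or TTCGAA, and the CCAAT box bound by NF-Y. The promoters of 4 members that were lower in AP.late are shown, 3 that carry both elements (Cdc20, Ccnb2 and Cdk1) and that of Ccnb1, the gene with the largest difference, which held CCAAT but neither TTTGAA nor TTCGAA. The counts do not bear on these elements. They are RefSeq windows on GRCm38.p6, from 150 bases before to 20 bases after the annotated start, with any match to the motifs on either strand in capitals (ATTGG is CCAAT on the opposite strand).
Cdc20 (chr4:118437324-118437493, minus strand): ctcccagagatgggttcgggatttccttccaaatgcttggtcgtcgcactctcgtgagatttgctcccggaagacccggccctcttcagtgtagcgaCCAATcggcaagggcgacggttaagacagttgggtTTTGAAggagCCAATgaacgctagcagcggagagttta
Ccnb2 (chr9:70421535-70421704, minus strand): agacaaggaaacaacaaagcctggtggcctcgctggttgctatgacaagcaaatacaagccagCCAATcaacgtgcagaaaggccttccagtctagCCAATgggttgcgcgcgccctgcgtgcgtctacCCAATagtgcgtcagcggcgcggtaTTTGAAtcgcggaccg
Cdk1 (chr10:69352893-69353062, minus strand): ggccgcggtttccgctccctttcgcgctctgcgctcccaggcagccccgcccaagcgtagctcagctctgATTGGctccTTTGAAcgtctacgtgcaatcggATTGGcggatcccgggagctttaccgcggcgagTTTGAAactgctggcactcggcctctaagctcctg
Ccnb1 (chr13:100786467-100786636, minus strand): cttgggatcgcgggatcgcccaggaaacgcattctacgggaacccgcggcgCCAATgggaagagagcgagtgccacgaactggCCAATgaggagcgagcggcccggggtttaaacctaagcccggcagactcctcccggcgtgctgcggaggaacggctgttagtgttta

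Over the full 300-base windows, 23 of the 26 genes had an entry. TTTGAA or TTCGAA was found in 17 of them (73.9%), in 16 within 40 bases of the start, and CCAAT in 19 (82.6%). Both were found in 16 (69.6%), and no match of one shared a base with a match of the other. Over all 27025 genes with a window the shares were 19.4%, 37.9% and 7.7%. For the S phase list they were 13.0%, 56.5% and 8.7% of 23 genes. Among genes past 2-fold lower in AP.late than in AP.mid, 35.8% of those with a window held both, against 3.37% of the 89 higher genes with a window. These lower genes were chosen from the same counts and include 25 of the G2 and M phase list, so their share is no separate evidence. A match of letters is not a binding site.

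Genes of DNA replication differed less from AP.mid than those of mitosis did, though not from AP.mid1 alone. Of 27 genes of the S phase list, 2 were lower than in AP.mid and none higher. These were Gins1, a subunit of the replicative helicase (-1.68), and Uhrf1, which directs maintenance methylation (-1.56), and the list median was -0.23. Mcm2, part of the replicative helicase, read 382, 94.2 and 81.8 CPM in AP.late at 1 h and 471, 119.7 and 88.7 CPM at 24 h, with both E13 sums above the rest. AP.mid read 85.5 to 147.8 CPM. Summed over the list, AP.late read 2809, 1130.2 and 1181 CPM at 1 h and 4732, 3080.4 and 2137 CPM at 24 h, below the 5930.2 to 8631 CPM of AP.early. Against AP.mid1 at 1 h, 8 of 24 genes were lower (median -0.86), Hells, Uhrf1 and Cdt1 by the most. Over all genes, 609 of 8508 were lower against AP.mid1.

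A few neurogenic genes were higher in AP.late than in AP.mid, with a larger difference from AP.mid2 than from AP.mid1. Neurog2, the proneural factor that commits progenitors to neurons, read 353, 396 and 127.4 CPM in AP.late at 1 h and 236.9, 249.5 and 91.4 CPM at 24 h. AP.mid2 read 79.7, 29.9, 47.4, 79.3, 68.6 and 8.58 CPM in the same order, below AP.late in every condition. AP.mid1 at 1 h read 235.2, 201.9 and 140.1 CPM, and AP.late was above it in 2 of 3, by 0.47 on average. In E13 at 24 h, 1 of the 7 cells held 89.4% of the Neurog2 counts.

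Dll1, the Notch ligand that neurogenic cells present to their neighbours, read 50.2, 32.2 and 21.6 CPM in AP.late at 1 h and 63.9, 31.4 and 8.17 CPM at 24 h. AP.mid2 of the same conditions read 0.29 to 17.4 CPM and AP.mid1 23.7 to 50.5 CPM. Insm1, which promotes delamination of basal progenitors, read 142.2, 171.8 and 114.8 CPM in AP.late at 1 h and 189.2, 139.3 and 131.01 CPM at 24 h, against 14.6 to 96.0 CPM in AP.mid2 of the same conditions and 95.5 to 104.9 CPM in AP.mid1.

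Of 13 genes of the basal progenitor list measured against AP.mid, Neurog2 (1.58), Dll1 (1.43) and Insm1 (1.13) were past 2-fold and none was lower, with a list median of 0.39. Against AP.mid2, 4 of 12 were higher (median 1.31), Gadd45g being the fourth at 2.48. Against AP.mid1, none of 10 was past 2-fold (median -0.35). Eomes, which defines basal progenitors, differed by 0.84 (SD 1.57) and was above AP.mid in 4 of 6 conditions. Summed over the list, AP.late read 886 to 2112 CPM, below the 3650 to 7185 CPM of basal progenitors. The Notch target Hes1 lay the other way, below AP.mid in 6 of 6 conditions by 0.56 (SD 0.41), without passing 2-fold.

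**Figure D4:**
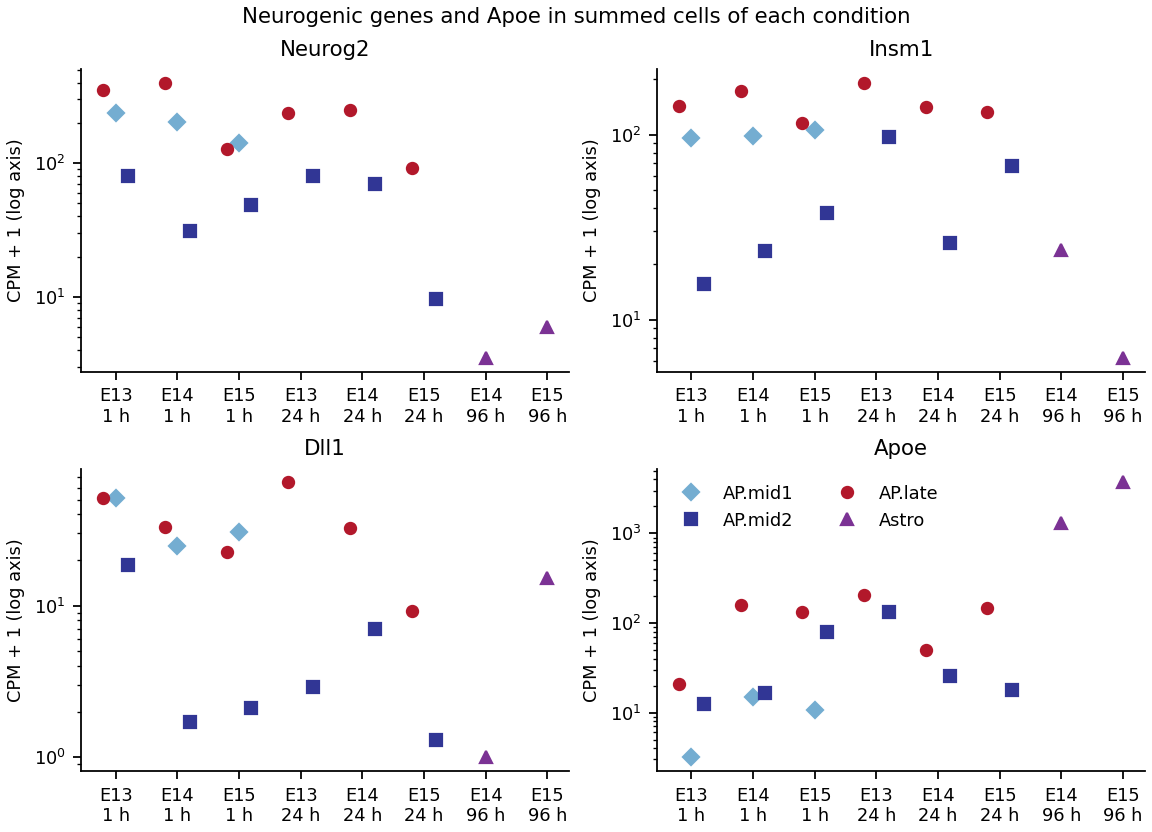
Levels of Neurog2, Insm1, Dll1 and Apoe (CPM + 1, log axis) in AP.late (red circles), AP.mid1 (light blue diamonds, 1 h only), AP.mid2 (dark blue squares) and Astro (purple triangles). Each point is 1 sum of cells. AP.late lies above AP.mid2 for the 3 neurogenic genes in all 6 conditions, and Apoe reaches 1317 and 3709 CPM in Astro.

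Among the genes higher in AP.late, Apoe was the 1 that is a textbook astrocyte gene. It encodes a lipid carrier protein secreted by astrocytes. AP.late read 20.0, 155.9 and 130.2 CPM at 1 h and 201.9, 49.4 and 146.6 CPM at 24 h, against 5.26, 13.9, 62.9, 102.2, 33.4 and 16.9 CPM in AP.mid. The difference was 1.60 (SD 1.07), above AP.mid in 6 of 6 conditions and 2.70 against AP.mid1 alone. With every cell weighted equally it was 1.33, and not all 6 conditions kept that sign. In the E13 sums 1 cell held 99.3% (1 h) and 95.9% (24 h) of the counts. At the same thinned depth, the share of AP.late cells with an Apoe count was 6.67%, 27.8% and 29.0% at E13, E14 and E15 at 1 h, and 28.6%, 36.8% and 45.9% at 24 h. In AP.mid of the same conditions it was 6.25%, 11.6%, 23.6%, 16.7%, 15.4% and 28.6%. AP.late was the higher in all 6 conditions, by less than 1 percentage point at E13 at 1 h. Without thinning, AP.late reached 13.3%, 27.8%, 44.4%, 28.6%, 42.1% and 56.8%, and AP.mid 11.2%, 18.8%, 38.2%, 25.0%, 15.4% and 57.1%, above AP.late at E15 at 24 h. Over all conditions, 4.59% of N1d and 93.8% of Astro cells had a thinned count (12.6% and 95.3% without thinning). Thinning left out 3 AP.mid and 16 N1d cells.

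The other genes named in this direction have mixed roles. They were Rasal2, a Ras GTPase activator (1.87), Cdk12, a kinase of transcription elongation (1.87), Atp6ap1, a proton pump subunit (1.77), Mios (1.69), Rpp40 (1.61), Kdm7a, a histone demethylase (1.52), Ube2h (1.49), Dock1 (1.49), Sorl1 (1.46), Pgpep1 (1.27), Creb5 (1.25), the noncoding RNA Miat (1.22) and 1 gene known by a clone name (1.20). Ube2h and Sorl1 fell short of 2-fold without E13 at 24 h, at 0.89 and 0.98, and so did Pgpep1, at 0.52. With 1 h conditions alone, Cdk12 (0.82), Mios (0.77), Atp6ap1 (0.50), Ube2h (0.88) and Pgpep1 (0.39) were inside 2-fold. Against AP.mid1 alone, so were Atp6ap1 (0.59), Ube2h (0.76), Sorl1 (0.80), Pgpep1 (0.74) and Miat (0.35). In E13 at 24 h, 1 cell held all Mios counts and 99.4% of the Dock1 counts. Sparc, a matrix glycoprotein, was above AP.mid in 6 of 6 conditions at 0.97 (SD 0.37), just inside 2-fold. Gpc4, a glypican, stood just past it at 1.01 (SD 0.90).

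List medians of the gliogenic programme over the 6 conditions were close to equal in AP.late and the pooled AP.mid, less so against AP.mid1 alone. Single conditions lay on both sides of 0. Of 16 gliogenic transcription factors, 1 was past 2-fold higher and none lower, with a median of 0.027 (-0.39 to 0.62 by condition). Against AP.mid2 alone the median was 0.025. Against AP.mid1 alone, which had sums only at 1 h, 2 of 14 were higher, with a median of 0.43 (0.25 to 0.67 by condition). Over all genes, 499 of 8508 were higher against AP.mid1, with a median of -0.056. Nfia, a nuclear factor I protein needed for the start of gliogenesis, read 364, 675 and 423 CPM in AP.late at 1 h and 588, 438 and 415 CPM at 24 h, within the range that AP.mid and Astro span (326.6 to 711 CPM) and with no order by day. Nfib averaged 1747 CPM in AP.late and 1268 CPM in Astro. Sox9, which keeps glial progenitors, averaged 244.4 CPM in AP.late and 251.2 CPM in AP.mid. Olig1 and Olig2, factors of the oligodendrocyte lineage, averaged 0.11 and 0.71 CPM.

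Most signalling genes also stayed within 2-fold. No gene of 7 in the JAK-STAT list passed 2-fold (median -0.27), none of 11 in the BMP and Id list (median 0.056), and 1 of 8 in the FGF and EGF list, the receptor Erbb2 (-1.17), which was low in both clusters (means 7.20 and 20.4 CPM). In the Notch list Dll1 alone of 16 was past 2-fold (median -0.14). By condition the JAK-STAT median against the pooled AP.mid ran from -1.02 to 0.69. The BMP and Id median ran from -0.18 to 0.35, and the FGF and EGF median from -0.81 to 0.15. Against AP.mid1 alone the medians of the JAK-STAT, BMP and Id, and FGF and EGF lists were 0.81, 0.21 and 0.36. The JAK-STAT median then ran from -0.62 to 1.81 by condition. Against AP.mid2 alone the 3 medians were 0.018, 0.015 and -0.066. Egfr, a receptor of late glial progenitors, averaged 0.69 CPM in AP.late and read 0.83 and 99.1 CPM in Astro.

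Some effector genes of mature astrocytes were low, while other members of the astrocyte list were not. Gfap, a filament protein, averaged 0.13 CPM, and Aqp4, a water channel, read 0 CPM in every AP.late sum. Both were also 0 in the smaller Astro sum and read 40.2 and 106.6 CPM in the larger. Slc1a2, the glutamate transporter GLT-1, read 0, 13.2 and 8.92 CPM at 1 h and 0.45, 0.08 and 0.09 CPM at 24 h. Slc1a3, the glutamate transporter GLAST that radial glia already use, read 265.8, 333 and 652 CPM at 1 h and 584, 440 and 713 CPM at 24 h, against 223.9 to 701 CPM in AP.mid. Averaged over the 2 times, Aldh1l1 read 0.07, 9.16 and 87.1 CPM in AP.late at E13, E14 and E15, and Mt3 read 3.46, 33.8 and 156.7 CPM. Summed over the astrocyte list, AP.late read 2718 to 6663 CPM, and AP.mid of the same conditions 2682 to 6970 CPM. Of 27 astrocyte genes measured, Apoe alone was past 2-fold against AP.mid, and the list median was 0.031. The list of outer and late radial glia had none of 10 past 2-fold (median -0.22), and the apical progenitor list had Aspm alone of 23 (median 0.038).

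**Figure D5:**
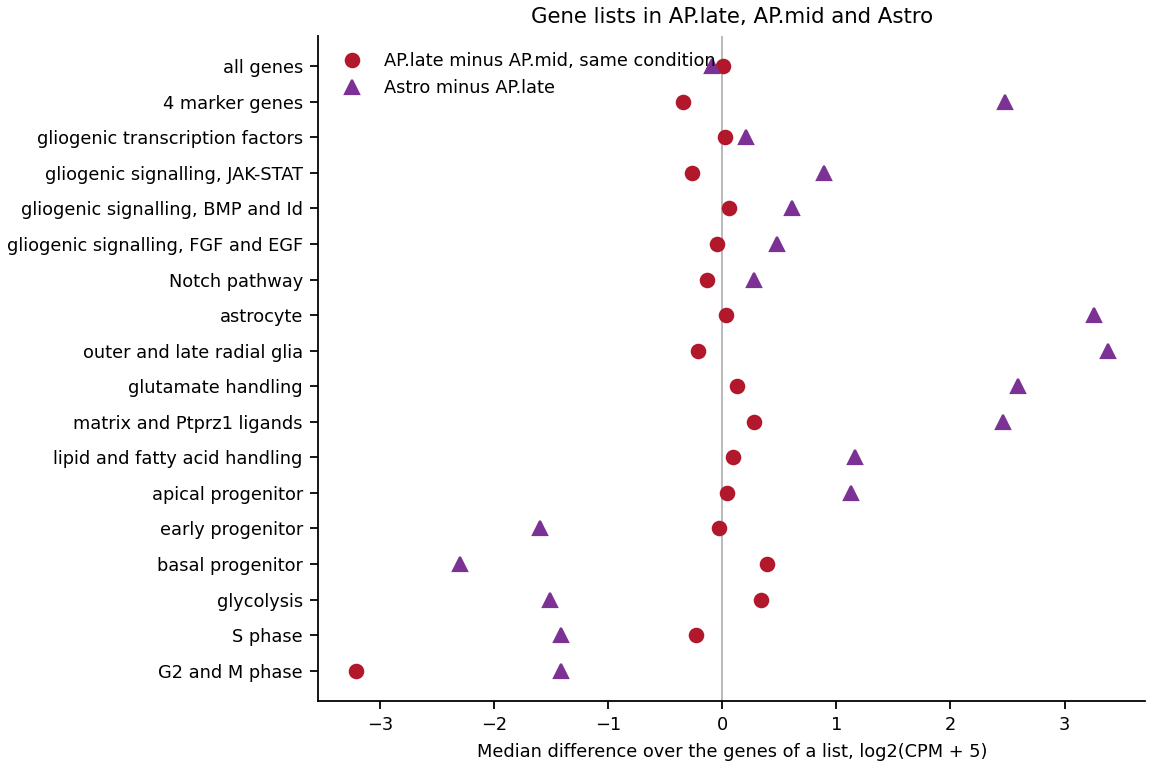
Median difference, log2(CPM + 5), over the genes of each list for AP.late minus AP.mid within condition (red circles) and for Astro minus AP.late (purple triangles). Against AP.mid the G2 and M phase list lies at -3.21 and the other lists plotted between -0.35 and 0.39. Against Astro the astrocyte list lies at 3.26 and the basal progenitor list at -2.30.

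Compared with AP.late, Astro cells held far more of the 4 markers and of astrocyte effector genes and less of neurogenic, replication and glycolytic genes. Astro had 2 sums, E14 and E15 at 96 h (7 and 54 cells), so class, collection time and run cannot be told apart here. Of 9424 genes, 723 were higher in Astro (7.67%) and 650 lower (6.9%), past 2-fold with no overlap between the 6 AP.late and 2 Astro sums. With DESeq2 size factors the split was 942 higher and 517 lower, and the median over all genes moved from -0.095 to 0.064, a shift to read every difference against.

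All 4 markers were higher in Astro. Zbtb20 read 1440.0 and 1923 CPM (2.01 above AP.late on the log2 scale), Fabp7 10859 and 9586 CPM (2.94), Ptprz1 2220.3 and 2593 CPM (3.94) and Aldoc 2225 and 2456 CPM (1.67). The lowest Astro value of each lay above the highest AP.late value.

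Of 32 astrocyte genes, 22 were higher and none lower (median 3.26). Slc1a2 reached 472 and 675 CPM (6.24), Sparcl1, a secreted matrix protein, 519 and 1329.9 CPM (5.20), Hepacam, an adhesion molecule of astrocyte contacts, 216.4 and 239.1 CPM (5.04), Cspg5, a chondroitin sulphate proteoglycan, 488 and 529 CPM (4.90) and Apoe 1317 and 3709 CPM (4.49). Tnc, a matrix protein of late radial glia, ran from 0 to 104.5 CPM in AP.late and was 1113 and 1041 CPM in Astro (5.53). In the matrix list 9 of 15 genes were higher and 2 lower (median 2.46), Ncan among them at 1005 and 1003 CPM against 107.2 to 253.6 CPM in AP.late. In the glutamate list 5 of 6 were higher, Glul, glutamine synthetase, by 2.57.

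Median differences were smaller for regulators than for these effectors. Of 16 gliogenic transcription factors, 4 were higher in Astro (Zbtb20, Id3 by 3.47, Sox9 by 1.07 and Pou3f2 by 1.00) and 1 was lower, with a median of 0.21. Nfia, Nfib and Nfix overlapped between the classes, at differences of 0.37, -0.42 and -0.10. In the JAK-STAT list 3 of 6 were higher, Adcyap1r1, Jak1 and Jak2, and in the BMP and Id list 3 of 12, Bmpr2, Id1 and Id3. In the FGF and EGF list 4 of 9 were higher, Fgfbp3 by 3.01. In the Notch list 3 of 15 were higher (Dner, a Notch ligand of neurons and glia, by 3.41, Nrarp, a feedback inhibitor, by 1.62 and the effector Hes1 by 1.57) and 2 lower (the glycosyltransferase Mfng, -2.76, and Rbpj, the DNA-binding partner of Notch, -1.21), with a median of 0.28. Hes1 read 789 and 403 CPM against 98.3 to 311 CPM in AP.late.

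Genes lower in Astro included neurogenic and replication genes. Neurog2 read 2.50 and 4.95 CPM in Astro (-4.67), Gadd45g, a stress and differentiation gene, 0 and 17.8 CPM against 153.5 to 720 CPM in AP.late (-4.53), and Insm1 22.9 and 5.21 CPM (-3.16). Of 10 basal progenitor genes, 5 were lower and none higher (median -2.30). The S phase list had 8 lower and none higher (median -1.41), led by Mcm2 (-3.78) and the replication licensing factor Cdt1 (-3.41). Of the early progenitor list, 5 of 10 were lower, the RNA-binding proteins Igf2bp1 (-2.86) and Igf2bp3 (-2.59) among them.

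Glycolysis split around the aldolase marker. Of 19 glycolytic genes, Aldoc was higher in Astro and 9 were lower, with a median of -1.51. Pkm, pyruvate kinase, read 851 to 1648 CPM in AP.late and 63.8 and 305 CPM in Astro (-3.13). Gapdh read 765 to 1209 CPM against 328 and 402 CPM (-1.51), Ldha 885 to 1610 CPM against 413 and 133.3 CPM (-2.20), Tpi1 402 to 654 CPM against 41.3 and 137.9 CPM (-2.58) and Pfkl 33.8 to 112.3 CPM against 0.42 and 5.31 CPM (-3.21). The sums did not overlap for any of these 5 genes. Under all 14 other settings between 9 and 12 of the glycolytic genes were lower, with list medians of -1.89 to -1.04. Against AP.mid no glycolytic gene passed 2-fold, though 15 of 19 leaned higher in AP.late (median 0.34).

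Within AP.late, 24 h against 1 h and the trend over injection day were tested with edgeR's quasi-likelihood test on the 6 sums. The label was made from the same counts, so the choice of cells can limit which differences remain inside the cluster. That limit was not tested. At a Benjamini-Hochberg adjusted p of 0.05, 0 of 8644 genes differed between 24 h and 1 h (0%), 343 at an unadjusted p under 0.05, and DESeq2 called 47 (27 higher and 20 lower). For the trend over day, 1 of 8644 genes passed (0.0116%), 383 unadjusted, and DESeq2 called 89 (75 rising and 14 falling). Within each time the days were split between runs, so a day slope cannot be fully told apart from run. The difference AP.late minus AP.mid changed with time for 0 of 9854 genes (0%), 385 unadjusted, and DESeq2 called 96 higher and 29 lower. The edgeR median of this change over all genes was 0.377, above 0, and the DESeq2 split is to be read against such a shift. Most AP.mid cells were AP.mid1 at E13 and E14 at 1 h, but AP.mid2 at E15 at 1 h and on each day at 24 h. Time is therefore mixed with the make-up of AP.mid in this contrast, and the part of each was not tested. The sums varied widely, with a biological coefficient of variation of 90.98%. No label ties a cell to an animal, so the spread behind each p-value is that among these sums, which may be partly technical. On simulated data the edgeR test found 0 of 100 genes set 4-fold apart between the times and 40 of 100 set to change 4-fold per day, so a low count here says little.

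Ifitm3, an interferon-inducible membrane protein, was the gene that rose with injection day (edgeR log2 slope 6.79 per day, SE 0.67, adjusted p = 0.0354). Each SE of an edgeR estimate here is its absolute size divided by the square root of the test's F statistic. It is not a fitted standard error. It read 0, 0 and 20.7 CPM at E13, E14 and E15 at 1 h and 0, 11.9 and 631 CPM at 24 h, so the slope, which starts from sums at 0, depends on how zeros are handled and is no bound. Of the 37 cells of E15 at 24 h, 27 had a count, and 1 cell held 32.0% of that sum's. AP.mid of E15 at 24 h read 157.3 CPM. The adjusted p from edgeR was 0.103 with every cell weighted equally and 0.0773, 0.335 and 0.354 without E14 at 1 h, E13 at 24 h and E13 at 1 h, while DESeq2 gave 1.84e-15.

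Fabp7 had the largest difference with time among the markers. It averaged 888 ± 732 CPM at 1 h and 2518 ± 619 CPM at 24 h (SD, n = 3 each), an edgeR log2 change of 1.76 (SE 0.31, unadjusted p = 0.000328, adjusted p = 0.945), and its day slope was 0.78 (SE 0.18, adjusted p = 0.993). Dbi, an acyl-CoA binding protein of radial glia, read 1203, 1991 and 2596 CPM at 1 h and 2264, 3085 and 3768 CPM at 24 h. It was higher at each later day at both times, with an edgeR slope of 0.48 (adjusted p = 0.993). Zbtb20 had a day slope of 0.83 with an adjusted p of 0.993 and a time change of 0.36. None of these passed.

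Several lists leaned 1 way between the times without any gene passing the edgeR test. In the S phase list 25 of 26 genes had a positive estimate at 24 h (median 1.25), against 4081 of 8644 over all genes (median -0.069). In the G2 and M phase list 1 of 20 was positive (median -2.08). In the early progenitor list 1 of 10 was positive (median -1.08). Dmrt3, a cortical patterning factor, read 52.8, 94.3 and 46.5 CPM at 1 h and 0.23, 0.08 and 0.09 CPM at 24 h, and Hmga2, a chromatin protein that early progenitors express, read 85.1, 28.1 and 14.5 CPM at 1 h and 0.23, 1.78 and 0.09 CPM at 24 h. In the young neuron list 10 of 14 were positive (median 1.92), and in the astrocyte list 18 of 24 (median 0.52). Over injection day, 21 of 24 astrocyte genes had a positive slope (median 0.44), 7 at an unadjusted edgeR p under 0.05. Over all genes 4786 of 8644 had a positive day slope (median 0.073). The sums differed in depth and in genes per cell along with time (median 4066 to 4363 genes per cell at 1 h, 4552 to 5828 at 24 h), whose part in these estimates was not tested.

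Over all classes, few genes were highest in AP.late. Of 12231 genes, 37 were at least 2-fold above every other class with Astro left out (0.303%), and 10 with Astro included (0.0818%). Apoe led the 37 at 2.14 above the nearest other class. Ogn, a matrix proteoglycan, followed at 2.10 with 0, 81.8 and 17.2 CPM at 1 h and 0, 76.9 and 165.7 CPM at 24 h. In both E14 sums 1 cell held all Ogn counts, while 18 of 37 cells of E15 at 24 h had some. AP.mid read 0 to 0.58 CPM and Astro 202.7 and 106.2 CPM. Mcur1 (1.63), the imprinted noncoding RNA H19 (1.56), Rpp40 (1.47) and Ptpn13 (1.35) came next. On plain CPM, H19 averaged 65.5 in AP.late and 57.9 in AP.mid. In the E13 and E14 sums of AP.late, 1 cell held 84.3% to 100% of the H19 counts. None of the 4 proposed markers was among the 37. With a pseudocount of 1 CPM such genes were 0.842% of all, and with 20 CPM there were 2.

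Across the 12231 genes the mean AP.late profile lay closest to AP.mid1 (Pearson r 0.942 across genes, which are not independent replicates), then AP.mid2 (0.926), BP (0.916), AP.early (0.885), N1d (0.863), Astro (0.799), IN (0.798) and N4d (0.797). The class means here and in the paragraph above rest on unlike conditions. AP.mid1 had 3 sums, all at 1 h, and AP.mid2 had 8, with E12 and 24 h among them. Class cannot be told apart from time, day and cell number in this order. AP.mid1 and AP.late differed in their share of ribosomal protein counts at 1 h, which was 14.3%, 12.4% and 13.1% in AP.mid1 and 9.48%, 7.5% and 10.9% in AP.late from E13 to E15. Its part in the differences between these clusters was not tested.

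Of the markers of other cell types, those of microglia were near 0 in the AP.late sums, and those of neurons were not. Of the microglial list, 3 of 8 genes were in the table, their summed level ran from 0 to 0.23 CPM, and Aif1 and Cx3cr1 were at 0 in all sums. The endothelial and pericyte list (3 of 10 genes in the table) ran from 1.05 to 18.8 CPM, the ependymal list (3 of 9) from 0.44 to 33.0 CPM, and the interneuron list (12 of 12) from 30.7 to 247.03 CPM, where AP.mid ran from 31.5 to 277.6 CPM. The young neuron list ran from 2010.3 to 3616 CPM in AP.late and from 1651 to 4869 CPM in AP.mid. No doublet caller was run.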

How the data were processed

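The authors deposited 1 table of counts per gene and cell, with 16441 genes and 2756 cells. Reads were aligned with TopHat2 2.0.13 to GRCm38 and UMI-tools was named, per the submitters' processing notes. The counter, annotation and cell filters are not given in the sources used here. The deposited counts are taken as reads, since each cell's total was 0.987 to 1.0 of the read number in its label. Cell clusters are the authors' labels.

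Counts were summed per cluster and condition with at least 5 cells. Levels are CPM with TMM scaling. Descriptions used log2(CPM + 5), genes at 10 CPM in 3 sums, and a call past 2-fold with 1 sign in every condition, or with no overlap for Astro. Within AP.late, edgeR 4.0.16 (R 4.3.3) quasi-likelihood tests with time and day as terms had 3 residual degrees of freedom, 4 for the difference from AP.mid, with Benjamini-Hochberg adjustment, and were tested on simulated data. DESeq2 1.42.0 was an alternative, as were size factors, other pseudocounts and filters, equal cell weights, single AP.mid clusters, single times and leaving out each sum. Cells were thinned to 50000 counts for detection. Tables and plots were made with Python 3.11.15, numpy 2.4.6, pandas 2.3.3, scipy 1.17.1 and matplotlib 3.10.9.

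Named genes were up to 15 per direction with the largest difference among called genes of at least 50 CPM, predicted, ribosomal protein and mitochondrial genes passed over, 37 followed genes, and up to 6 members of each of 29 lists. Genes outside this rule, such as Sparc, Gpc4 and the promoters shown, were chosen after their values were seen. The members and lists were chosen with earlier results of these data known. Results for some genes are not reported here.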

Additional observations from a re-analysis of the deposited data

Results flagged for a closer look

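Among 57 genes examined for a condition that stands apart from the other 5 in the difference AP.late minus AP.mid, 4 had such a value, on the log2(CPM + 5) scale, and each time it was E13 at 24 h, the sum with the fewest AP.late cells (7). Chance flags about 1 in 20 groups. Hopx, a gene of late radial glia, had 4.698 there against -1.909 to 0.537 elsewhere. In that condition 0 of 12 AP.mid cells and 4 of 7 AP.late cells had a Hopx count, and 1 AP.late cell held 48.5% of the AP.late counts. Hopx averaged 96.96 ± 38.43 CPM (SD) over the AP.late sums of 24 h. Fgfr3, a growth factor receptor of glial progenitors, had 0.647 against -0.741 to -0.354. Ube2h, a ubiquitin conjugating enzyme, had 4.479 against 0.608 to 1.279, with counts in 6 of 7 cells. Pgpep1, a peptidase, had 5.007 against 0.218 to 0.721, also with counts in 6 of 7 cells.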

How the results depend on the processing

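Counts past the threshold are given as a share of the genes tested. DESeq2 called 0.544% for time, 1.03% for day and 1.27% for the difference from AP.mid, where edgeR called 0%, 0.0116% and 0%. The day share was 0% with a filter of 50 CPM, with equal weight of cells and without any single sum (0% to 0%). The 3.45% of genes past 2-fold against AP.mid became 1.58% with a pseudocount of 20 CPM, 13.0% against AP.mid1 alone, 10.7% with 1 h conditions alone and 15.4% with 24 h conditions alone, the last 3 with fewer conditions that must share a sign. The 14.6% against Astro became 22.7% without the E14 sum at 96 h and 44.4% without the E15 sum, within a range of 15.4% to 44.4% over all sums left out. The 0.303% above every class but Astro became 0.842% with a pseudocount of 1 CPM and 0.0164% with 20 CPM. Over 98 named or followed genes, 0 values reversed, 858 stayed on their side, 41 were no longer past the threshold and 3 levels moved with equal weight of cells. Of the named genes, 14 were no longer past it against AP.mid1 alone and 7 with equal weight of cells. The cause of these changes was not tested. No paired analysis was possible because replicate numbers here only name cells. The difference from AP.mid was taken within condition. With as few as 7 cells per sum, single cells carry much of a low gene's level, and Astro rests on 2 sums.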

Other observations

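The lists of lipid, metallothionein and redox, G1 and stress genes had medians near 0 for AP.late minus AP.mid. Of 19 lipid genes, Apoe alone passed 2-fold (median 0.093), while 10 were higher and none lower in Astro (median 1.17). These included Acsbg1, an acyl-CoA synthetase (18.5 CPM on average in AP.late and 255.8 CPM in Astro), Abca1, a cholesterol exporter (42.3 and 277.9 CPM), Hmgcs1, an enzyme of cholesterol synthesis (625 and 1793 CPM), and Scd2, a fatty acid desaturase (1062 and 2364 CPM).

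Of 14 metallothionein and redox genes, none passed 2-fold against AP.mid (median -0.13). In Astro, Gstm1, a glutathione transferase, was higher (52.5 CPM in AP.late and 299.8 CPM in Astro) and Gpx1, a glutathione peroxidase, was lower (388 and 109.9 CPM). None of 12 genes of G1 and cell cycle exit passed 2-fold against AP.mid (median 0.18). Cdk4, a kinase of G1, was the 1 lower in Astro, at 141.3 CPM against 480.3 CPM in AP.late. None of 10 immediate early and stress genes passed 2-fold against AP.mid (median 0.14).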
